A study of Mus musculus with 16 samples.

Results

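Accessible chromatin around Batf, Irf4 and Prdm1, which encode transcription factors of effector regulatory T (Treg) cells, was described from the open chromatin regions called over a series of tissue and spleen Treg cells. A region was taken when at least 1 base of it lay in a window of mouse genome build mm9 around one of the genes. The windows were chr12:86980000-87100000 for Batf, chr13:30790000-30910000 for Irf4 and chr10:44060000-44280000 for Prdm1. They held 79 of the 75363 regions of the list, 26 at Batf, 27 at Irf4 and 26 at Prdm1. The gene positions that came with the windows were 87.03 to 87.05 Mb for Batf, 30.84 to 30.86 Mb for Irf4 and 44.16 to 44.18 Mb for Prdm1. They are given to 10 kb, so a region within 10 kb of an interval's end cannot be placed firmly inside or outside the gene, and no region was assigned to an exon, an intron or a promoter.

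The series measured open chromatin by ATAC-seq, an assay whose transposase inserts sequencing adapters into nucleosome-free DNA, in Treg cells labelled CD4+CD25+ from C57BL/6 mice. The 16 samples came from 8 mice, and each mouse gave cells of 1 non-lymphoid tissue and of its own spleen. The tissue groups were epididymal visceral adipose tissue, skeletal muscle of the injured hindlimb, and lamina propria of the colon in the groups Nrp1p and Nrp1n, with 2 samples each, and 4 spleen groups of 2 samples matched them. The labels used here name no transgene or treatment and do not say how the muscle was injured or how old the mice were. The deposited list gives positions over the whole series and no value per sample, so sequencing depth is unknown, tissue and spleen could not be set against each other, replicate errors cannot be computed, and the cell type could not be checked against marker genes. A region accessible in 1 tissue cannot be told from one accessible in every sample.

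The 3 factors act in one programme. BATF is a small leucine zipper protein of the AP-1 family that binds DNA with a JUN partner, and it often does so beside IRF4, which the T cell receptor induces and which binds such composite elements with low affinity on its own. Prdm1 encodes Blimp-1, a zinc finger repressor that is induced downstream of IRF4 in effector Treg cells and is associated with their production of IL-10. Treg cells of fat and of other non-lymphoid tissues are known to depend on BATF and IRF4.

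The 250 bases before the RefSeq start of each gene (assembly GRCm38.p6, written along the gene's own strand, 5′ to 3′) are shown because they are the promoters of the genes whose surroundings are described. All 3 genes matched an entry by symbol. A single start per gene was searched, although RefSeq lists 6 transcripts for Prdm1 and 2 for Irf4. That assembly is not the build of the list, so the sequences were not placed among the regions. Capitals mark matches to any of 9 short motifs searched on both strands.
Batf: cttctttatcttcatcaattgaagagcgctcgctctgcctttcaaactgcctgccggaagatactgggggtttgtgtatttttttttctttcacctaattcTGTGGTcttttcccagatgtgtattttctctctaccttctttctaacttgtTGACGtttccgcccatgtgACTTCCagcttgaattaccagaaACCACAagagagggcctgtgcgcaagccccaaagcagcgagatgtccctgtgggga
Irf4: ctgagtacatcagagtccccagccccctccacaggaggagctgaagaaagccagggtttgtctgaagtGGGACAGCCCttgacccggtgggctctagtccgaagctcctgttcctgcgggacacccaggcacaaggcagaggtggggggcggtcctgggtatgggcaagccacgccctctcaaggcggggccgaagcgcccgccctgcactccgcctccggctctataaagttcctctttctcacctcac
Prdm1: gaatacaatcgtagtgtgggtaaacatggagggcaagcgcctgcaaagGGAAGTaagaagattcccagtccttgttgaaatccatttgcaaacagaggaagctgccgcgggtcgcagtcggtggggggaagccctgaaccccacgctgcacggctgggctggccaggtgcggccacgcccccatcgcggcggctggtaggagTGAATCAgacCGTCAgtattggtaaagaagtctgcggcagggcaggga

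The Prdm1 promoter held 1 match to TGANTCA, a loose form of the AP-1 motif, searched with any base in the middle (N). The match read TGAATCA, and binding of BATF and its JUN partners to it was not tested. It began 48 bases before the start, and 6.75% of 32851 RefSeq promoters of the same length held a match to TGANTCA. No match to that motif lay in the other two promoters. A match to TGACG, a part of a cyclic AMP response element, lay 98 bases before the start in Batf and 38 bases before it in Prdm1. Of the promoters, 17.8% held one. The full element was not searched, and TGACG was not among the motifs first planned. The Batf promoter held 2 matches to the RUNX motif TGTGGT, beginning 149 and 56 bases before the start, and 14.0% of promoters held at least 1. The ETS motif GGAAGT, present in 19.7% of promoters, lay 79 bases before the Batf start and 202 bases before the Prdm1 start. The Irf4 promoter was the richest in G and C of these (63.6%, with 59.2% at Prdm1, 46.4% at Batf and a median of 52.4% over the promoters). It held 1 match to a loose form of the NF-kB motif (GGGA, then 4 bases of any kind, then CC). The match began 182 bases before the start, and 17.6% of promoters held one. Matches were absent from the 3 sequences for 4 motifs. These were the IRF motif, GAAA repeated after 2 bases of any kind (2.98% of promoters), the PRDM1 motif AGNGAAAG (7.30%), and both composite elements of AP-1 and IRF, TTTC set 4 bases before TGANTCA (0.0974%) and GAAA directly before TGANTCA (0.100%). The pattern TGANTCA is part of both composite elements and reads alike on the 2 strands. These are letter matches in a window and no measure of binding.

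The windows of Batf and Irf4 were among the most region-dense stretches of their size, and that of Prdm1 less so. Batf had 21.7 regions per 100 kb and Irf4 22.5, while Prdm1 had 11.8, against 2.86 over chromosomes 1 to 19 and X. Regions covered 4.63% of the Batf window, 4.46% of the Irf4 window and 2.28% of the Prdm1 window, against 0.577% of those chromosomes. When the chromosomes were cut into tiles of 120 kb, 0.588% of 21951 tiles held at least the 26 regions of the Batf window and 0.465% held at least the 27 of the Irf4 window. Of 11967 tiles of 220 kb, 5.45% held at least the 26 regions of the Prdm1 window. On the gene's own chromosome these shares were 0.398% for Batf, 0.599% for Irf4 and 8.14% for Prdm1. Of the smaller tiles 52.1% held no region, and among tiles with at least 1 region the shares were 1.23% for Batf, 0.969% for Irf4 and 9.81% for Prdm1. The Prdm1 window is the longer one. Within 60 kb on each side of the interval's middle, a stretch of the same length for each gene, 26 regions lay at Batf, 27 at Irf4 and 15 at Prdm1, and 5.98% of 120 kb tiles held at least 15. No test was made, since regions are not replicates and the windows were chosen for known genes.

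**Figure D1:**
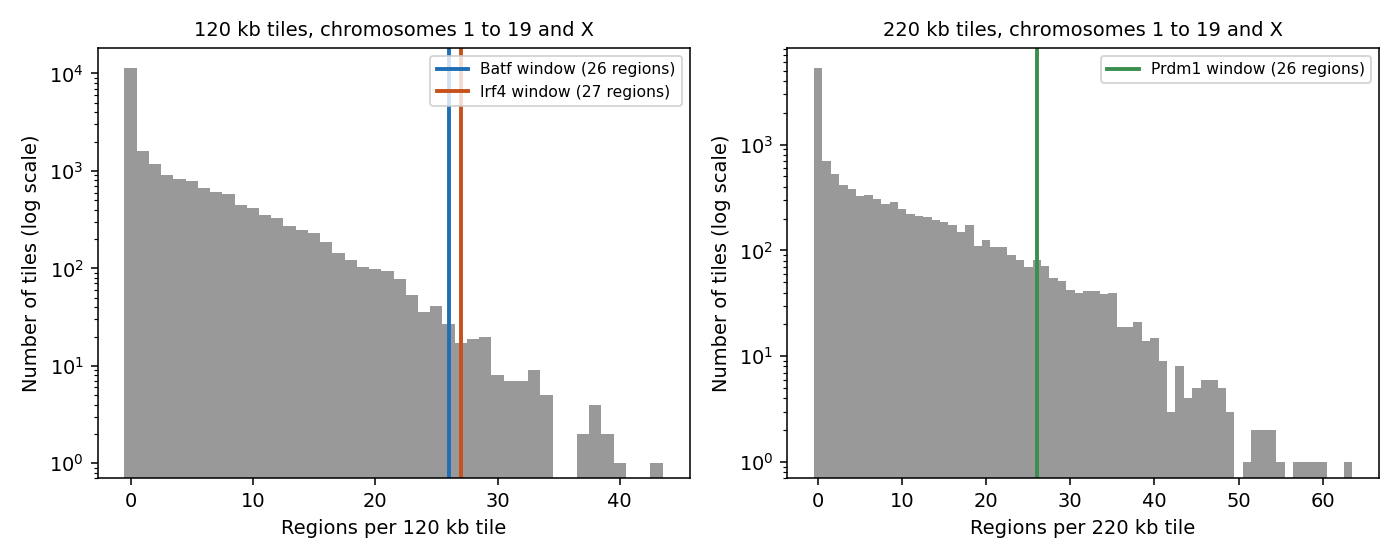
Number of tiles (vertical axis, log scale) by the number of regions in a tile (horizontal axis), for tiles of 120 kb (left) and 220 kb (right) on chromosomes 1 to 19 and X. Lines mark the Batf (26 regions) and Irf4 (27) windows, which lie in the thin right tail, and the Prdm1 window (26), which 5.45% of the longer tiles reach.

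Around each gene, regions were denser in the gene interval than beside it, and this contrast was smallest at Batf. At Irf4, 11 of the 27 regions lay wholly inside the 20 kb interval, or 5.50 per 10 kb, against 1.60 per 10 kb in the flanks, a ratio of 3.44. At Prdm1, 8 of 26 lay inside, or 4.00 per 10 kb, against 0.900 per 10 kb in the flanks, a ratio of 4.44. At Batf, 6 of 26 lay inside, or 3.00 per 10 kb, against 2.00 per 10 kb in the flanks, a ratio of 1.50. Of 131757 tiles of 20 kb, 0.0235% (31 tiles) held at least 11 regions, 0.376% held at least 8 and 1.54% held at least 6. The Irf4 interval was thus the densest of the 3 against the rest of the list. Adding 10 kb at each end, to allow for the rounded positions, brought the counts to 11 at Batf, 17 at Irf4 and 9 at Prdm1, so Batf, with several regions just outside its interval, then exceeded Prdm1. Among regions of the list's median width or more, 2 of 15 lay inside at Batf, 5 of 14 at Irf4 and 3 of 7 at Prdm1, and the Batf interval was then no denser than its flanks.

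The flanks differed in which side was richer. Batf and Irf4 are read toward higher coordinates and Prdm1 toward lower ones, so the start end is the lower end of the first pair of intervals and the higher end at Prdm1. Batf had 12 regions in the 50 kb beyond its start end and 8 in the 50 kb beyond its other end. Irf4 had 8 on each side in flanks of 50 kb. Prdm1 had 5 regions in the 100 kb beyond its start end and 13 in the 100 kb beyond its other end, so its regions lay mostly in and downstream of the interval. The RefSeq table lists 6 transcripts for Prdm1, 2 for Irf4 and 1 for Batf, which were not placed on mm9. The protein-coding genes next to the members in that table are Jdp2 on the lower and Flvcr2 on the higher side of Batf, Dusp22 and Exoc2 at Irf4, and Atg5 and Prep at Prdm1. Jdp2 and Fos, which stands just beyond it, encode further AP-1 family proteins, Flvcr2 a transporter, Dusp22 a phosphatase, Exoc2 an exocyst subunit, Atg5 an autophagy protein and Prep a peptidase. Regions of the flanks may belong to these neighbours, which was not tested.

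**Figure D2:**
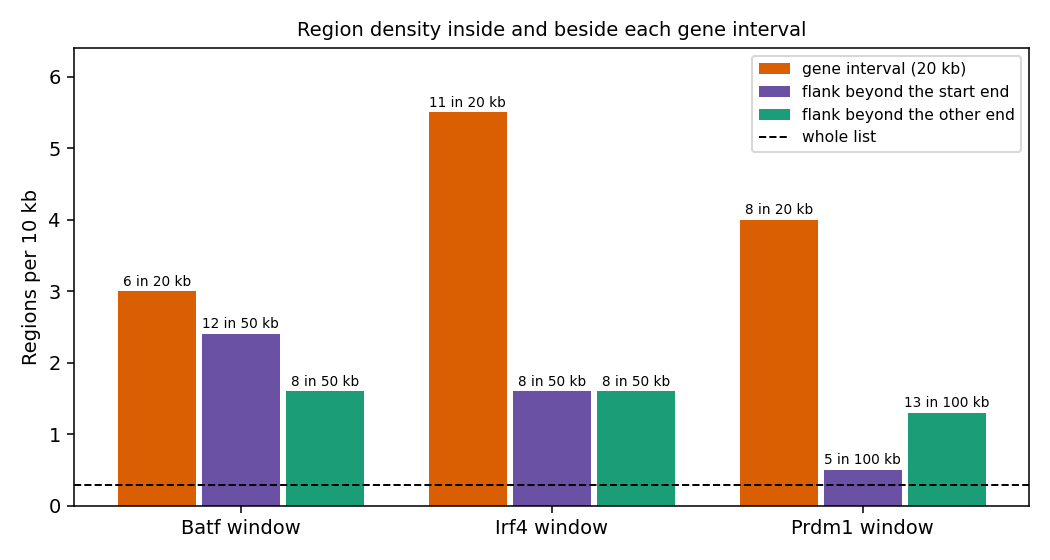
Regions per 10 kb (vertical axis) wholly inside the 20 kb gene interval (orange), in the flank beyond the start end (purple) and in the flank beyond the other end (green) of each window, with the counts above the bars. The dashed line is the mean of chromosomes 1 to 19 and X (0.286 per 10 kb); the Irf4 interval stands highest at 5.50 and the start-side flank of Prdm1 lowest at 0.500.

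At Batf, the regions formed a core of 16 that ran through the gene interval. Linked where gaps were under 12500 bp, this core spanned 51.8 kb (chr12:87001938-87053785). Of the list's regions, 11.8% lay in clusters of at least 16. Without regions of 150 bp or less the largest cluster of the window held 8, and with links under 5 kb it held 4. A group of 4 members on the lower side belonged to a cluster of 8 that reached beyond the window, and the other 6 members lay together on the higher side (chr12:87067765-87087533). The first member was cut by the window's edge, with 76 of its 180 bases inside, and the last region outside lay 712 bp before it. On the higher side the next region lay 71.9 kb beyond the last member. The widest Batf region measured 384 bp (chr12:87027300-87027683) and ended 2.32 kb before the lower end of the interval, within the rounding of the gene's start. The region nearest that end was 188 bp wide and ended 0.927 kb before it. The next widest were regions of 332 bp (chr12:87076730-87077061) on the higher side, of 305 bp (chr12:87044536-87044840) inside the interval, of 302 bp (chr12:87070894-87071195) on the higher side and of 268 bp (chr12:86981522-86981789) on the lower side. The 305 bp region headed a row of 4 within the interval. The row ended at 87046758, and the last pair in it, of 108 and 200 bp, had the smallest gap of the window, 121 bp. Past the higher end of the interval, the nearest region began 1.77 kb away. The longest gap in the window, 14.0 kb, followed the region that ended at 87053785.

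At Irf4, 24 of the 27 regions formed 1 unbroken cluster of 67.7 kb (chr13:30816782-30884441). Clusters of at least this size held 5.05% of the list's regions. The largest cluster of the window held 19 regions without regions of 150 bp or less, and also 19 with links under 5 kb. The latter holds gaps of 4955 and 4946 bp, just under that limit. Among regions of median width or more, the largest cluster touching the window held 8 at Irf4, 6 at Batf and 5 at Prdm1. Those of 8 and 6 lay at a window's edge and ran on outside, and the clusters in the Irf4 and Batf intervals were smaller. The remaining 3 of the 27 Irf4 regions lay beyond the longest gap of the window, 20.7 kb. They were the start of a cluster of 12 that ran on outside the window. No region lay in the first 26.8 kb of the window, and the nearest one before the cluster lay 31.6 kb from it. A stretch of 20 kb from 30839366, just before the interval's lower end, to 30859317 held 12 regions, and 0.163% of the list's regions on chromosomes 1 to 19 and X began such a stretch with at least 12. The densest 20 kb held 8 regions at Batf (from 87027300, and again from 87036959) and 8 at Prdm1 (from 44154517, and again from 44162254). Of the list's regions, 4.94% began a stretch with at least 8. Each window's value is the highest over all its regions as starts, while these shares count single starts, so they do not give the rarity of a window. The widest Irf4 region measured 413 bp (chr13:30853048-30853460) and lay inside the interval, with a 235 bp region 577 bp before it. The others of the 5 widest were the first of the cluster, of 307 bp (chr13:30816782-30817088), the last in the window, of 252 bp (chr13:30909359-30909610), and a pair of 242 bp, 1 of them on the lower side (chr13:30824691-30824932) and 1 just inside the interval (chr13:30840309-30840550). A 225 bp region ended 0.410 kb before the interval's lower end, and regions of 242 and 220 bp followed just inside it. In all, 8 regions had their centre within 10 kb of that start end, against 5 at the start end of Batf and 2 at that of Prdm1. Near the other end of the interval, 3 regions of 94, 188 and 159 bp (chr13:30858646-30859317) followed each other with gaps of 78 and 153 bp. The smallest gap of the window, 70 bp, separated regions of 163 and 232 bp (from 30905139 to 30905603) on the higher side.

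At Prdm1, the regions were broken into 6 groups, 2 of them single regions. The largest group held 11 regions over 37.3 kb (chr10:44141333-44178656), from the lower side through the interval, and 21.2% of the list's regions lay in clusters of at least 11. Inside the interval, 7 of its 8 regions lay in the lower part, between 44162254 and 44170185, and the eighth, of 190 bp, lay 8.28 kb further on, near the gene's start end. Beyond it, 24.4 kb were free of regions, then stood a single 178 bp region (chr10:44203031-44203208), and a further 43.9 kb, the longest gap of the 3 windows, held none. These stretches are ones where no region was called, not ones shown to be closed. Of the 79 members only that region and the last of the window (chr10:44276759-44276892) had no neighbour within 12500 bp, against 12.9% of the list. The widest Prdm1 region measured 412 bp (chr10:44120427-44120838) and lay 39.2 kb beyond the lower, or far, end of the interval. It stood in a group of 3. Next came the first region of the window, of 304 bp (chr10:44080473-44080776), which opened a group of 7 over 21.0 kb, a pair of 284 bp (chr10:44164264-44164547) and 270 bp (chr10:44167167-44167436) inside the interval, and a 240 bp region (chr10:44154517-44154756) that ended 5.24 kb before it. The smallest gap of the window, 271 bp, lay inside the interval between regions of 194 and 168 bp. The nearest regions outside the window lay 32.0 kb before its first member and 44.6 kb past its last.

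**Figure D3:**
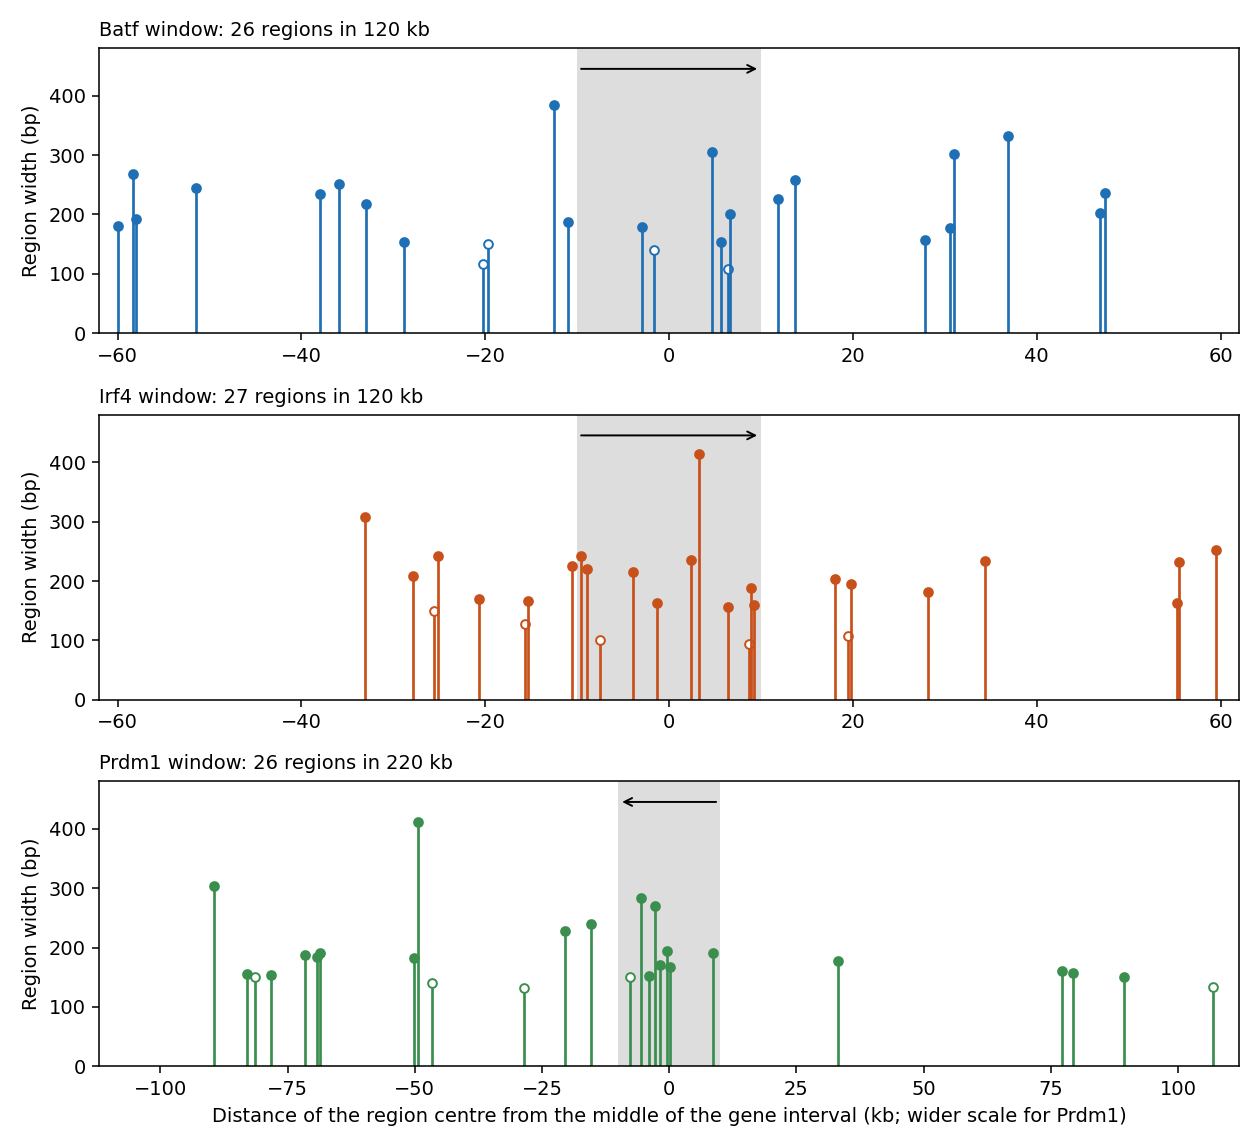
Each region as a line at the distance of its centre from the middle of the gene interval (horizontal axis, kb, wider scale for Prdm1), with its width in bp as the height (vertical axis); open circles are regions of 150 bp or less, the grey band is the 20 kb interval and the arrow the direction of transcription. The widest regions stand before the interval at Batf (384 bp), inside it at Irf4 (413 bp) and beyond its far end at Prdm1 (412 bp).

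Widths of the members were close to those of the list at Batf and Irf4 and somewhat smaller at Prdm1. The median width was 201.5 bp at Batf (range 108 to 384), 195 bp at Irf4 (94 to 413) and 174 bp at Prdm1 (132 to 412), against 191 bp over the list. At Prdm1, 7 of 26 members were as wide as the list's median or wider, against 15 of 26 at Batf and 14 of 27 at Irf4. Regions of 250 bp or more numbered 7 at Batf (26.9%), 3 at Irf4 (11.1%) and 4 at Prdm1 (15.4%), with 16.1% over the list. Those of 300 bp or more numbered 4 at Batf, 2 at Irf4 and 2 at Prdm1, and 6.32% of the list's regions were that wide. The 5 regions in the start-side flank of Prdm1 measured 134 to 178 bp, below the list's median.

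Narrow regions, of 150 bp or less, numbered 4 at Batf, 5 at Irf4 and 5 at Prdm1, or 17.7% of the members against 15.4% of the list. Each of these 14 had an even width, as did 95.1% of the narrow regions of the list, while 49.8% of its wider regions did. Most of those at Irf4 and Batf had a close neighbour, and those at Prdm1 did not. At Irf4, 4 of 5 had a neighbour within 500 bp, in pairs of 150 and 242 bp, 128 and 166 bp, and 108 and 195 bp and in the row that began with the 94 bp region. At Batf 3 of 4 did, and at Prdm1 0 of 5 did. Over the list 55.0% of narrow regions had such a neighbour, against 35.7% of wider ones.

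Close pairs were commonest at Irf4. At less than 500 bp from the next region stood 10 of 26 members at Batf (38.5%), 13 of 27 at Irf4 (48.1%) and 6 of 26 at Prdm1 (23.1%), against 38.7% of the list. Together 29 of 79 members had one, a share (36.7%) near that of the list. This is a share of regions and not a number of pairs per length. Of the members wider than 150 bp, 7 of 22 at Batf (31.8%), 9 of 22 at Irf4 (40.9%) and 6 of 21 at Prdm1 (28.6%) had a neighbour of any width so close. With the narrow regions deleted from the list, also as neighbours, the shares were 27.3% at Batf, 27.3% at Irf4 and 28.6% at Prdm1. The centres of the close pairs lay a median of 509.5 bp apart in the 5 pairs at Batf, 287 bp in the 7 pairs at Irf4 and 611 bp in the 3 pairs at Prdm1, against 377.5 bp over the list. Gaps between neighbours were shorter in the windows than over the list. Gaps that cross a window's edge were left out, while the list's median holds every gap. The median gap between neighbours was 2525 bp at Batf, 2296 bp at Irf4 and 3055 bp at Prdm1, against 5200.5 bp over the list. With regions less than 500 bp apart merged, 21 sites remained at Batf, 20 at Irf4 and 23 at Prdm1, so Irf4 went from the highest count to the lowest. The Prdm1 window is 220 kb long and the others 120 kb, so its count is not the highest density. After merging, the share of tiles of the window's length with as many sites was 0.419% for Batf, 0.574% for Irf4 and 3.31% for Prdm1.

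**Figure D4:**
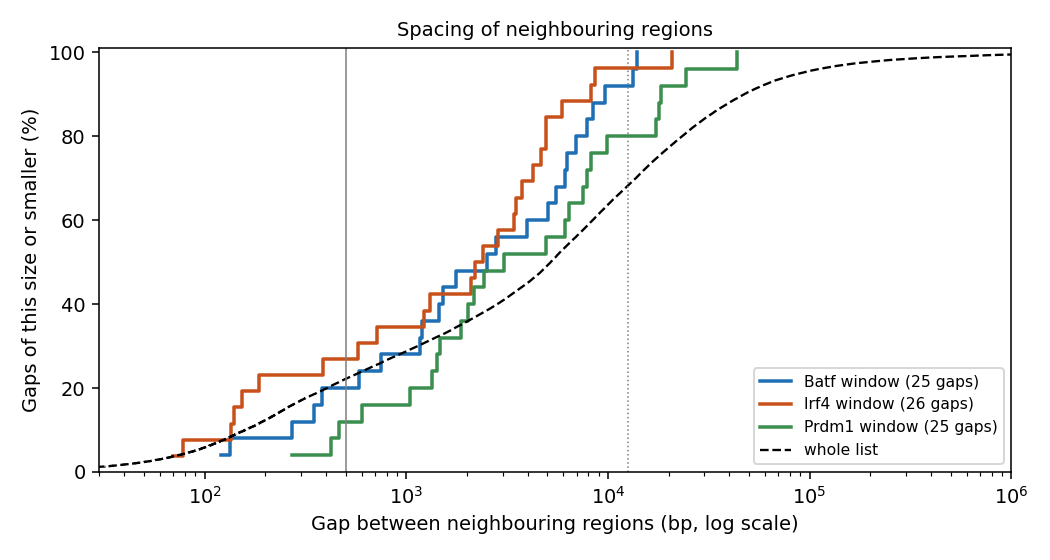
Share of gaps between neighbouring regions (vertical axis, %) that are of a given size or smaller (horizontal axis, bp, log scale) in the windows of Batf (25 gaps), Irf4 (26) and Prdm1 (25) and over the list (dashed). The grey lines mark 500 bp and 12500 bp. Gaps that cross a window's edge are left out. The 3 windows have smaller gaps than the list above a few kilobases. At 500 bp the Irf4 curve is the highest and the Prdm1 curve the lowest.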

How the data were processed

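The deposited file of the series is 1 list of open chromatin regions, with the authors' columns for the chromosome, the start and the end of each region, per the file header. Scores, reads and per-sample columns are not in it. The submitters' processing notes name genome build mm9 and cutadapt 1.8.3, Bowtie2 2.2.4, SAMtools 1.3, Picard 1.130 and HOMER 4.6, without roles or settings. Sources used here do not give how samples were combined, which threshold was set or whether cut positions were shifted, and these steps decide which regions are listed.

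Starts were raised by 1 base to 1-based positions. Windows and gene intervals came with the selection rule, and the members and all measures were chosen with earlier results of these data known. A tile was counted with the regions that overlapped it by at least 1 base. Tiles, gaps and clusters used the autosomes and X, each taken to end with its last region. Regions named are the 5 widest of a window, the ends of its largest cluster, those nearest each end of the interval, the pair with the smallest gap and the ends of the longest gap; others named were chosen after their values were seen. The gene table and promoters are RefSeq's for GRCm38.p6; its positions served only for the order of neighbouring genes, and no coordinates were converted. The planned comparison of tissue with spleen and the protein patterns were not run, for want of values per sample and of protein sequences. The functions were tested on simulated lists. Python 3.11.15, numpy 2.4.6 and matplotlib 3.10.9 were used.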

Additional observations from a re-analysis of the deposited data

How the results depend on the processing

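No paired analysis was possible because samples have no values of their own in this list. Leaving out replicates and the settings planned for counts per sample were not run for that reason. With depth unknown, an empty stretch says only that no region was called there. Of 81 comparisons of a value with its alternative, 40 stayed within 1.5 times (counts) or within the binomial 95% interval (shares and medians) and 41 moved. The interval rests on 21951 or 11967 tiles for tile shares, and on 26 or 27 regions for the other shares and the medians. It is thus far narrower for tile shares, so the tally mixes unlike yardsticks. Regions and tiles are not independent draws, so the interval is only a yardstick and measures no error. In the order Batf, Irf4 and Prdm1, a list cut to regions at or above the median width left 15, 14 and 7 regions in the windows. It left 2, 5 and 3 inside the intervals and 6, 8 and 5 in the largest clusters. The clusters of 6 and 8 lay at a window's edge and ran on outside. The Batf interval held fewer regions than the Prdm1 interval, as before. Under that setting the median width was 232.5 bp at Irf4 and 270 bp at Prdm1, the share with a neighbour within 500 bp was 14.3% at Irf4 and 0% at Prdm1, and the share of tiles with as many regions was 0.971% at Irf4 and 19.3% at Prdm1. Merging regions within 500 bp set the share with such a neighbour to 0% in each window by construction, gave a median width of 234 bp at Irf4 and brought the share of tiles to 0.419%, 0.574% and 3.31%. Keeping regions wider than 150 bp gave a tile share of 0.610% at Irf4 and 6.24% at Prdm1, a close neighbour for 27.3% at Irf4 and a largest cluster of 8 at Batf. With the narrow regions deleted also as neighbours, the share with a close neighbour was 27.3% at Batf and 28.6% at Prdm1, so Irf4 no longer led. Tiles of the own chromosome gave 0.398%, 0.599% and 8.14%, and tiles with at least 1 region 1.23%, 0.969% and 9.81%. Within 60 kb of the interval's middle Prdm1 had 15 regions and a tile share of 5.98%. Adding 10 kb at the ends of the interval gave 11 regions at Batf and 17 at Irf4. Links under 5 kb left largest clusters of 4 at Batf and 7 at Prdm1, while Irf4 kept 19. Some gaps lay close to that limit. The Irf4 cluster holds gaps of 4955 and 4946 bp, and the Batf cluster ends at a gap of 5015 bp. Links under 25 kb gave 42, 53 and 22. The clusters of 42 and 53 ran on outside the Batf and Irf4 windows, which hold 26 and 27 regions. The settings change which regions, links, tiles or stretches are counted, and what moved each value was not tested.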
